A study of Homo sapiens with 24 samples.

Results

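The clustered protocadherins are 53 protein-coding genes, found among the 28297 genes measured by their symbols (PCDHA, PCDHAC, PCDHB, PCDHGA, PCDHGB and PCDHGC followed by a number). They lie in 3 neighbouring clusters on the plus strand of chromosome 5, between positions 140786136 and 141512981 of GRCh38 (GENCODE 29). The alpha cluster held 15 of them, the beta cluster 16 and the gamma cluster 22. They were followed in the established human embryonic stem cell line H9, grown in E8 medium, across 8 groups of 3 RNA-seq libraries. Engineered cells, called Cry2 in monoculture and mCherry after sorting, carried a Cry2 fusion with the intracellular part of the Wnt co-receptor LRP6, followed by 2A-mCherry, and a puromycin resistance gene. Wild-type cells, called wt in monoculture and GFP after sorting, carried eGFP and a neomycin resistance gene, so the control cells were transgenic as well. Cry2 is a photoreceptor of plants whose molecules gather in clusters under blue light, and clustered LRP6 tails activate canonical Wnt signalling. Each kind of cell was kept dark or lit for 48 h at 0.8 µW/mm2, either alone or in a 1:1 mixture from which the mCherry-positive and GFP-positive cells were sorted. A replicate pooled 2 to 3 wells, and the sources used here do not say whether a line was 1 clone or whether replicates came from separate experiments, so p-values measure the spread between these libraries.

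Clustered protocadherins are cell surface proteins of the cadherin superfamily that bind the same isoform on a neighbouring cell, and in neurons their combinations let a cell tell its own branches from those of others. In the alpha and gamma clusters each gene has its own large first exon and promoter, which is spliced to constant exons shared by the whole cluster, while beta genes consist of a single exon. Most isoforms are chosen at random in single neurons through CTCF, cohesin, a distant enhancer and DNA methylation of the promoters. The last genes of the alpha and gamma clusters, called the C types (PCDHAC1, PCDHAC2, PCDHGC3, PCDHGC4 and PCDHGC5), differ from the rest in sequence and in regulation. PCDHGC3 is widely expressed outside the nervous system, and its product has been tied to Wnt signalling through the inhibitor axin.

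Assigned reads per library ran from 28237578 to 34291124 in the dark monocultures, from 45763662 to 54707558 in the lit monocultures and from 31807414 to 56639833 in the co-cultures, so depth and light cannot be told apart in monoculture. All values are the authors' normalised reads, and levels are given as mean ± SD of 3 libraries (n = 3). Because alpha and gamma transcripts share constant exons, a read that falls there cannot be given to 1 gene. The share of 150-base stretches of a member's longest transcript that also occur in another gene had a median of 53.3% in the alpha cluster (0.0% to 62.4%), 4.0% in the beta cluster (0.0% to 19%) and 45.5% in the gamma cluster (0.4% to 53.8%). The sources used here do not say how the counting treated such reads. The eGFP signal was 11980.1 to 14951.5 in every wild-type library and at most 29.8 in the engineered ones, and 8 pluripotency markers summed to 238652.4 or more in each of the 18 libraries other than lit engineered cells. In monoculture, GC made up 33.73% of the read bases of wt dark replicate 1 and 50.47% or more in the others, and the RNA integrity number was lowest in Cry2 dark replicate 3, at 7.6.

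Most of the cluster genes were weakly expressed. Over the 24 libraries, 18 members had a mean below 10 normalised reads, 21 lay between 10 and 100, and 14 exceeded 100. Per kilobase of exon not shared with another gene, the highest mean levels over the 24 libraries were those of PCDHGC3 (446.2), PCDHB2 (275.27), PCDHGB7 (194.65), PCDHGA10 (144.91) and PCDHGC4 (135.87). PCDHA12 led the alpha cluster on the same scale at 93.82, followed by PCDHAC2 at 74.05. PCDHB2 alone supplied 55.05% to 68.17% of the beta reads in the group means. At the other end, PCDHA2 received 20 reads in all 24 libraries together and PCDHA3 received 32.

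Promoter windows are shown for 5 of the 8 genes that rose under light in Cry2 cells, which hold a short sequence near the start of transcription, and for a pair of alpha genes that hold it as well. RefSeq promoters (GRCh38.p14, 250 bases before to 50 bases after the start) matched 47 of the 53 members. The hexamer CGCTGT was chosen after counting hexamers in these same promoters, so its frequency is a description; the core CGCT is known from a conserved element of protocadherin promoters. On either strand it occurred in 17 of 20 gamma genes (85.0%), 7 of 13 alpha genes (53.8%) and 1 of 14 beta genes (7.1%), against 13.3% of 27305 genes in the promoter table. The windows below run 5′ to 3′ on the plus strand, with the hexamer in capitals. The first 5 come from genes that rose under light in engineered cells, and the last 2 from alpha genes that were not called higher. Of these 2, PCDHA6 stood at 130 ± 22.2 in Cry2 dark and 173 ± 10.9 in Cry2 light, without overlap of the libraries, while its mCherry dark and light libraries overlapped.
PCDHGB4, chr5:141387619-141387658: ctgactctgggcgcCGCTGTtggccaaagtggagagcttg
PCDHGB6, chr5:141407926-141407965: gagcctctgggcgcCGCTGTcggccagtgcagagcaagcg
PCDHGA10, chr5:141412933-141412972: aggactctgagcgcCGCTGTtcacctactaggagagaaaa
PCDHGC3, chr5:141475882-141475921: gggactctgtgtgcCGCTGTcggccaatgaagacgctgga
PCDHGC4, chr5:141484954-141484993: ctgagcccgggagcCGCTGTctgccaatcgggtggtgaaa
PCDHA6, chr5:140827899-140827938: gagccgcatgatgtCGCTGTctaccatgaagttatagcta
PCDHA10, chr5:140855843-140855882: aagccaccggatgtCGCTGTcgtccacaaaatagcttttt
The hexamer began 40 to 81 bases before the RefSeq start in these 7 windows. Gamma genes that did not rise carried the hexamer too, such as PCDHGA9 at 48 bases before the start, while PCDHGB7, which rose, had no match in its window. The relation of the hexamer to the light response was not tested. PCDHGA2, which rose in Cry2 cells, held the hexamer 41 bases before the start but is not shown above. PCDHGC5, which also rose, had no RefSeq promoter entry. In the first RefSeq window of each gene, the 4 C-type promoters with an entry had a GC content of 59.0% to 66.0%, against 33.7% to 40.3% in the other alpha genes, 33.3% to 46.3% in the beta genes and 32.3% to 51.3% in the other gamma genes. Some gamma genes have a second, downstream window, and those of PCDHGB4, PCDHGB5 and PCDHGB6 had 58.7% to 65.0%, overlapping the C-type range.

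Light changed the balance between the clusters in engineered cells. In Cry2 monocultures the summed gamma reads were 1715 ± 106 in the dark and 8457 ± 539 in the light, while the summed alpha reads were 1296 ± 114 in the dark and 602 ± 45.2 in the light. The sorted mCherry cells showed gamma sums of 1772 ± 61.8 and 9847 ± 1180 and alpha sums of 1263 ± 151 and 594 ± 21.0. In both cultures the 3 lit libraries lay apart from the 3 dark ones for alpha and for gamma. Beta sums stayed close, at 1708 ± 144 against 1623 ± 6.05 in Cry2 cells and 1738 ± 96.8 against 1656 ± 61.3 in mCherry cells, and the light and dark libraries overlapped. These sums are descriptions, since a few strongly expressed genes make up most of each.

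**Figure D1:**
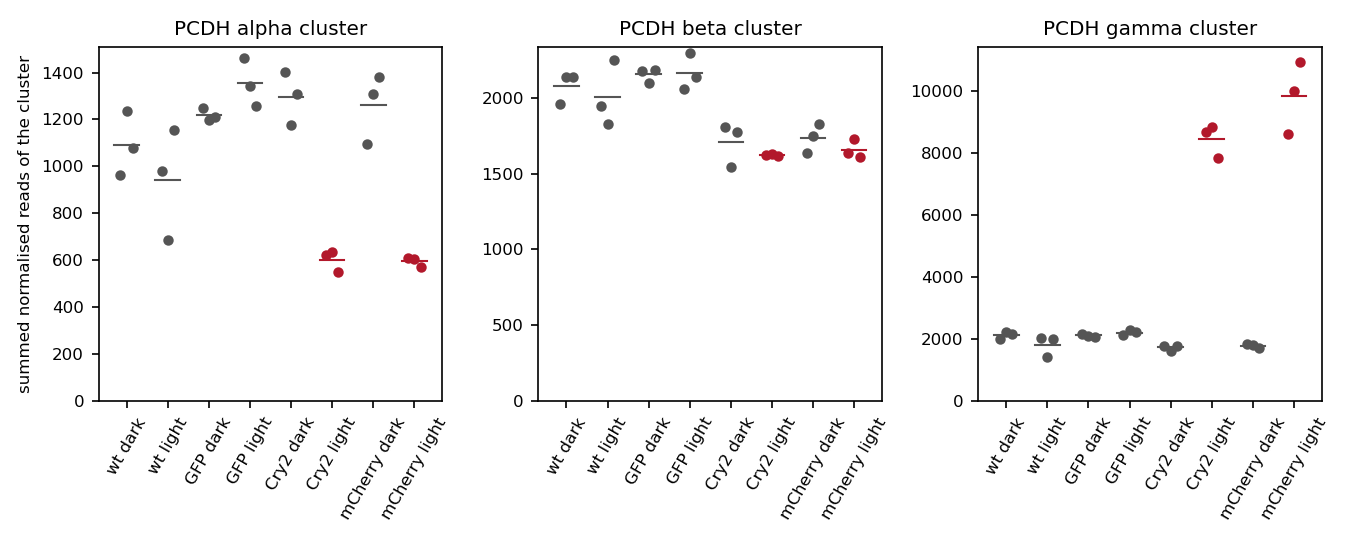
Summed normalised reads of each cluster (vertical axes, starting at 0) in every library; points are libraries, lines are means of 3, and red marks lit engineered cells. The lit engineered libraries stand above all others for gamma, with group means of 8457 and 9847, below all others for alpha, and among the dark engineered libraries for beta.

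The question of the light comparison is which transcripts change when the receptor is activated. By limma, with Benjamini-Hochberg adjustment over all genes tested, 8 of the 53 clustered protocadherins were higher in Cry2 light than in Cry2 dark and 7 were lower, while 26 did not pass the threshold of 0.05 and 12 were too low to be tested. Of all 19444 genes tested, 28.1% were higher and 30.4% lower, so the shares of the 41 tested members that moved were below those of all genes. What the 3 clusters did was unequal: the 8 higher members were all gamma genes, and the 7 lower ones were 4 alpha, 2 beta and 1 gamma gene. The median log2 change of tested members was -1.03 in the alpha cluster (9 tested), -0.26 in the beta cluster (13 tested) and 0.49 in the gamma cluster (19 tested), against -0.01 for all genes tested. In mCherry cells 7 members were higher and 9 lower of 43 tested, beside 27.2% and 28.7% of all 19436 genes tested. There the 7 higher members were again gamma genes, and 5 alpha, 3 beta and 1 gamma gene were lower. All 7 genes that rose in mCherry cells were among the 8 that rose in Cry2 cells (100% of the first list and 87.5% of the second). Of those that fell, 5 were shared (71.4% of the Cry2 list and 55.6% of the mCherry list): PCDHA4, PCDHA12, PCDHAC1, PCDHAC2 and PCDHB15. Over the 40 members tested in both cultures, the log2 changes under light had the same sign in 33 and correlated across genes with r = 0.91 and rho = 0.75, a description in which the points share libraries and differ in depth. No library serves both cultures.

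**Figure D2:**
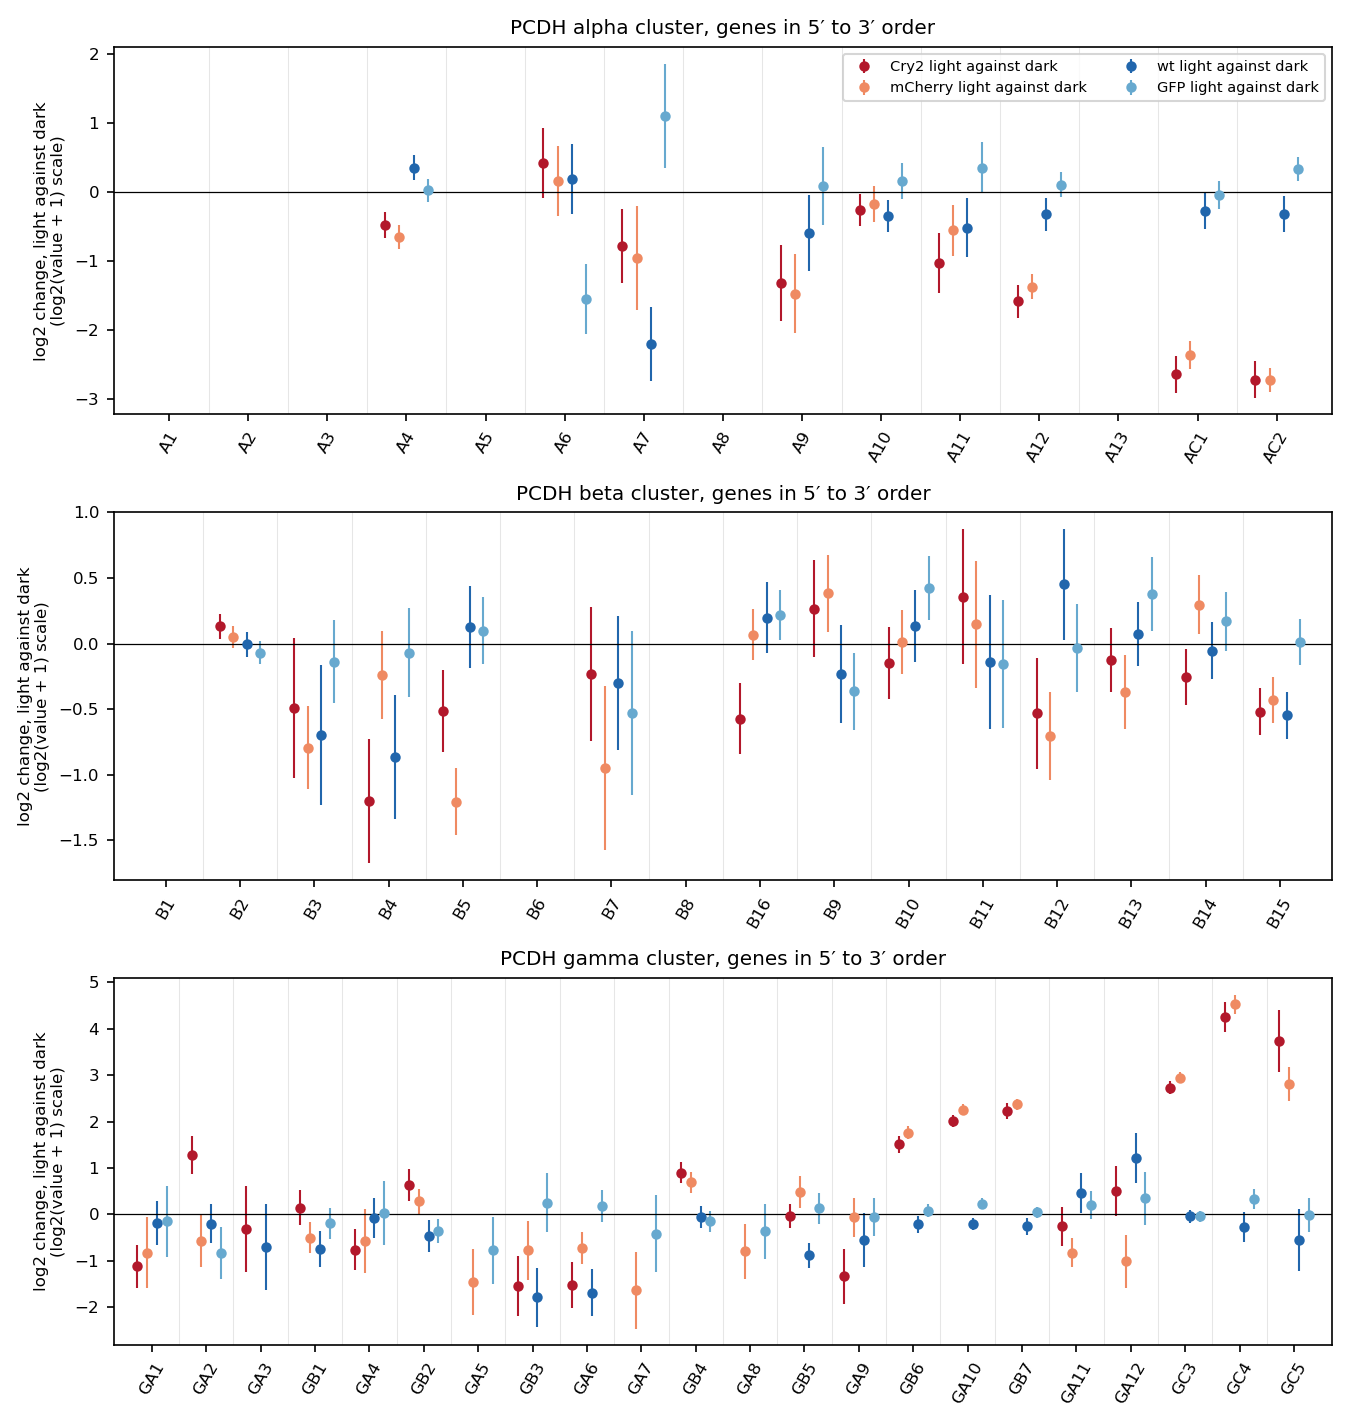
Log2 change of each tested gene between light and dark (vertical axis, on the log2(value + 1) scale, bars are standard errors), with genes placed in their order along each cluster. In engineered cells (red and orange) the rises sit at the end of the gamma cluster, reaching 4.25 and 4.52 for PCDHGC4, and the deepest falls at the end of the alpha cluster, while wild-type cells (blue) stay near 0 for these genes.

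PCDHGC4 (ENSG00000242419, chr5:141484997-141512979), a gamma C type needed for the survival of some neurons, showed the largest rise among the tested members. Its dark Cry2 libraries held 39.2, 53.7 and 119 normalised reads and its light libraries 1215, 1340 and 1122. The mCherry libraries held 46.2, 76.3 and 49.8 in the dark and 1185, 1352 and 1409 in the light. All 6 lit libraries were high and none came near a dark one. The rise was 17.4-fold in Cry2 cells (log2 change 4.25 ± 0.32 SE, limma adjusted p = 1.78e-08) and 22.9-fold in mCherry cells (4.52 ± 0.21, limma adjusted p = 1.13e-10). Without Cry2 dark replicate 3, the highest dark library, the Cry2 fold was 26.4. Its promoter up to the first annotated base of the gene (RefSeq, GRCh38.p14, chr5:141484780-141484996, plus strand, 5′ to 3′, CGCTGT in capitals) is shown as that of the member with the largest rise.
PCDHGC4 promoter: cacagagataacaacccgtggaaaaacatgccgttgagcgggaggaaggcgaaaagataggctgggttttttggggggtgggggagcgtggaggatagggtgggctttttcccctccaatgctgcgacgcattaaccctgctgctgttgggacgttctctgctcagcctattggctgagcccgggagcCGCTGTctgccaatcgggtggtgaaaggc
The first RefSeq window of this gene held 23 CpG pairs, beside 15 to 27 in the 4 C-type promoters and 2 to 16 in the first windows of the other gamma genes. The second windows of PCDHGB4, PCDHGB5 and PCDHGB6 held 17, 19 and 25.

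PCDHGC3, the most abundant gamma transcript per kilobase, rose from 573, 574 and 582 normalised reads in Cry2 dark to 3932, 3966 and 3618 in Cry2 light. In mCherry cells it rose from 624, 585 and 555 to 3910, 4681 and 5097. The lit and dark groups did not overlap, and wild-type cells stood at 492 ± 62.8 in wt dark and 539 ± 45.5 in GFP dark. The change was 6.66-fold in Cry2 cells (log2 2.73 ± 0.14, limma adjusted p = 1.35e-10) and 7.76-fold in mCherry cells (2.95 ± 0.12, limma adjusted p = 2.29e-11). PCDHGC5, the last gene of the cluster, was scarce in the dark: 13.1, 1.41 and 4.46 in Cry2 cells and 8.56, 15.8 and 19.8 in mCherry cells. Under light it reached 105, 68.9 and 58.6 in Cry2 cells and 80.7, 99.5 and 138 in mCherry cells. All lit libraries exceeded all dark ones, and the scatter among the dark Cry2 libraries was wide. The rise was 12.3-fold (log2 3.74 ± 0.67, limma adjusted p = 0.000181) and 7.22-fold (2.81 ± 0.37, limma adjusted p = 1.22e-05). Without Cry2 dark replicate 1 the Cry2 fold was 26.4, and over all alternatives the log2 change in Cry2 cells ranged from 3.12 to 4.39.

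A second run of responding gamma genes lay next to each other upstream of the C types. PCDHGB6, PCDHGA10 and PCDHGB7, at positions 15 to 17 of the cluster, encode isoforms of the variable gamma A and B subfamilies. PCDHGB7 stood at 234, 269 and 295 in Cry2 dark and at 1268, 1305 and 1161 in Cry2 light, a 4.69-fold rise (log2 2.23 ± 0.18, limma adjusted p = 3.86e-08). In mCherry cells it went from 299, 268 and 285 to 1301, 1499 and 1643, a 5.22-fold rise (2.37 ± 0.12, limma adjusted p = 1.94e-10). Light and dark did not overlap in either culture, and wild-type cells held 282 ± 44.5 in wt dark and 266 ± 7.67 in GFP dark. PCDHGA10 rose 4.06-fold in Cry2 cells, from 268 ± 28.1 to 1089 ± 93.8, and 4.78-fold in mCherry cells, from 276 ± 38.1 to 1317 ± 168 (log2 2.02 ± 0.13 and 2.25 ± 0.12, limma adjusted p = 2.56e-09 and 6.83e-10). PCDHGB6 rose 2.82-fold, from 218 ± 39.7 to 616 ± 58.6, and 3.41-fold, from 203 ± 9.62 to 694 ± 66.6 (log2 1.51 ± 0.18 and 1.76 ± 0.14, limma adjusted p = 3.36e-06 and 3.98e-08).

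The rises are described here by position. Apart from the C types, the blocks were drawn around the calls themselves, so the counts per block are a description and no test of grouping. Positions 15 to 17 held 3 members that rose of 3, and positions 20 to 22, the C types, held 3 of 3, in both cultures. Between them, PCDHGA11 and PCDHGA12 at positions 18 and 19 did not rise in either culture, and PCDHGA11 fell in mCherry cells. Among the first 14 genes of the cluster, 2 of 11 tested rose in Cry2 cells (PCDHGA2 and PCDHGB4) and 1 of 13 tested in mCherry cells (PCDHGB4). Levels differed along the cluster as well. Over all 24 libraries, lit ones included, the most abundant of the first 14 (PCDHGB4) averaged 100.28 normalised reads and PCDHGA12 7.12. Positions 15 to 17 averaged 330.9 to 646.59. Position and level were not separated. PCDHGB4 went from 82.3, 84.8 and 78.9 to 194, 148 and 125 in Cry2 cells (1.90-fold, log2 0.89 ± 0.23, limma adjusted p = 0.00354), and from 86.6 ± 6.04 to 141 ± 23.6 in mCherry cells (1.63-fold, 0.69 ± 0.23, limma adjusted p = 0.0185). The lit libraries all exceeded the dark ones, though the mCherry call was lost without mCherry dark c (limma adjusted p = 0.062) or without mCherry light b (0.0646). PCDHGA2 was near the detection limit, at 3.74 ± 0.833 in Cry2 dark and 10.6 ± 2.78 in Cry2 light (log2 1.28 ± 0.41, limma adjusted p = 0.0151). That call was lost without Cry2 light replicate 1, 2 or 3 (limma adjusted p = 0.0599, 0.127 and 0.057), and PCDHGA2 stood at 9.29 ± 2.44 and 6.40 ± 3.81 in mCherry dark and light. With DESeq2 the Cry2 call for PCDHGA2 was lost as well (adjusted p = 0.0726).

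**Figure D3:**
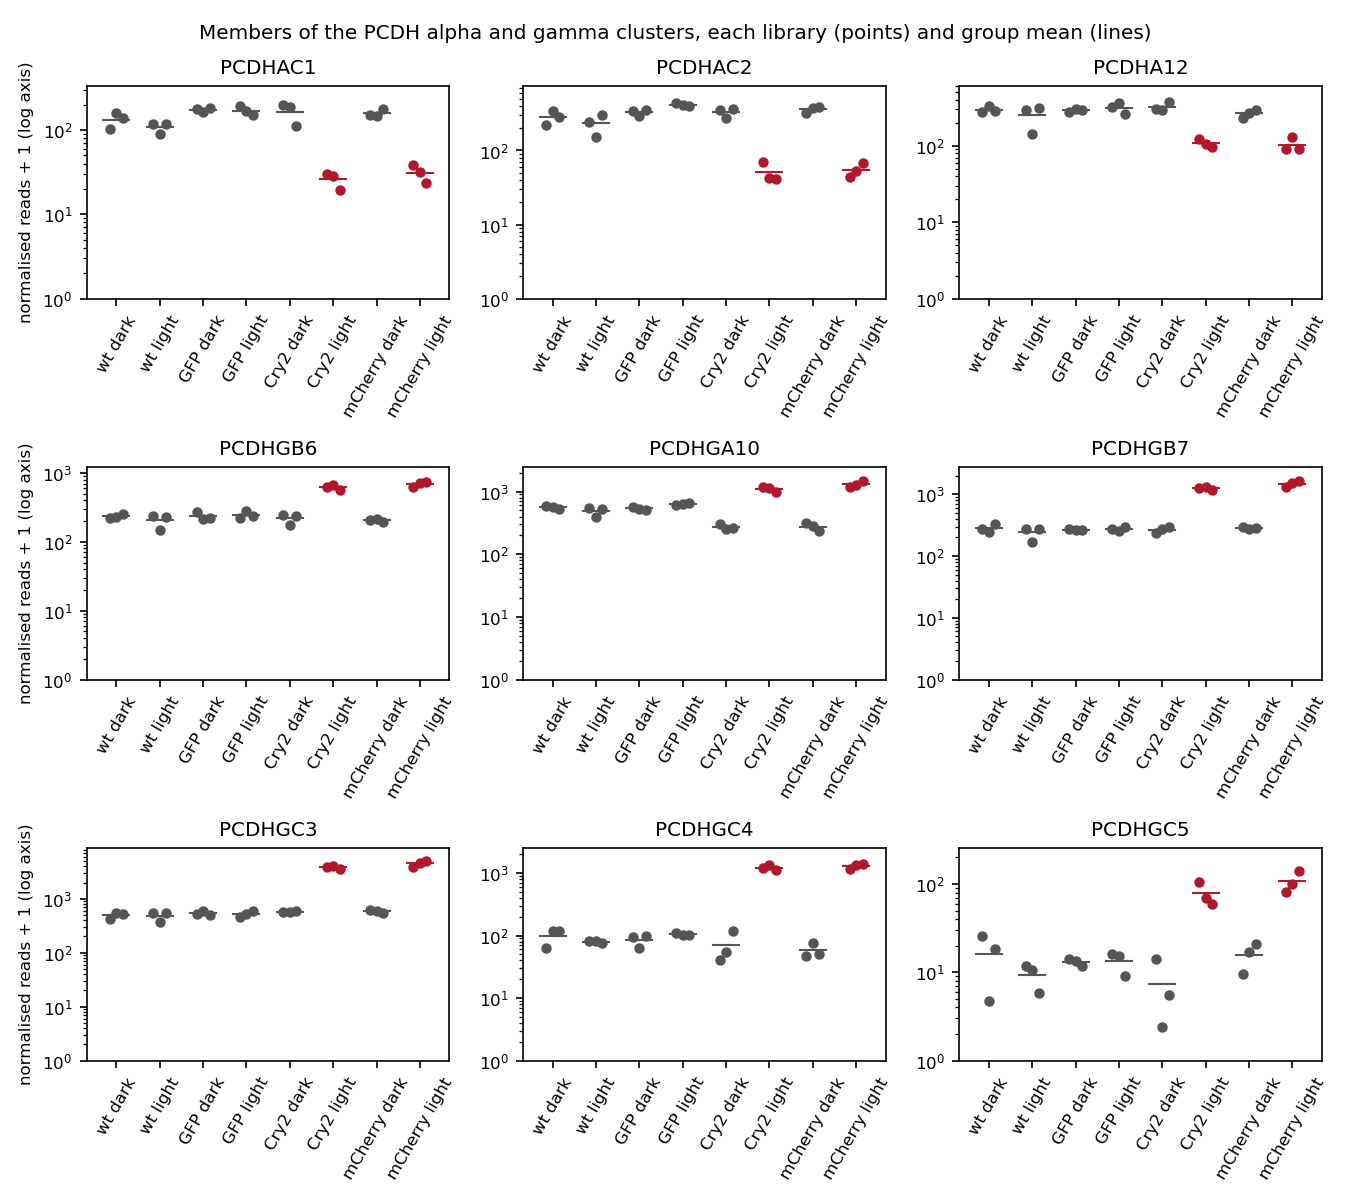
Normalised reads + 1 (vertical, log axis) of 9 alpha and gamma members in every library; points are libraries, lines are means of 3, and red marks lit engineered cells. For the 3 alpha genes in the top row the red points lie lowest, and for the 6 gamma genes they lie highest, with PCDHGC4 between 1122 and 1409 in all 6 lit engineered libraries.

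The makeup of the gamma reads differed between dark and lit engineered cells. PCDHGC3 made up 33.68% ± 2.04 of the gamma reads in Cry2 dark and 45.42% ± 0.66 in Cry2 light, and PCDHGC4 4.09% ± 2.33 and 14.49% ± 0.61. In mCherry cells the shares were 33.16% ± 0.98 and 46.29% ± 0.72 for PCDHGC3 and 3.24% ± 0.90 and 13.39% ± 0.47 for PCDHGC4. For both genes the shares in lit libraries exceeded all those in dark ones. PCDHGC5 remained a small part, 0.91% ± 0.26 and 1.07% ± 0.17 in the 2 lit engineered groups. PCDHGB6 rose in reads but held a smaller share in light, 7.06% ± 0.19 against 11.47% ± 0.31 in mCherry cells.

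**Figure D4:**
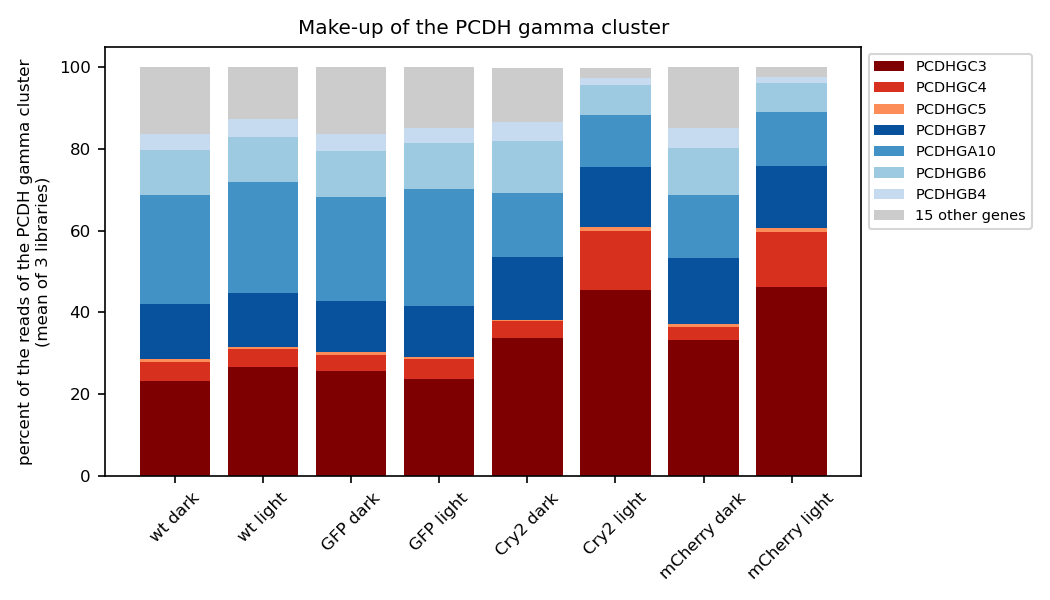
Percent of the gamma cluster's reads (vertical axis, mean of 3 libraries) from 7 genes and from the other 15 together, by group. In the 2 lit engineered groups PCDHGC3 and PCDHGC4 take 45.42% and 14.49% (Cry2) and 46.29% and 13.39% (mCherry), and the band of the 15 other genes is thinner than in any other group.

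The gamma genes that fell by limma, 1 in each culture, were weakly expressed. PCDHGA6 went from 17, 18.4 and 13.4 in Cry2 dark to 9.05, 6.48 and 1.77 in Cry2 light (log2 -1.53 ± 0.50, limma adjusted p = 0.0157), and the call was lost without Cry2 light replicate 3 (limma adjusted p = 0.124). It stood at 20.2 ± 3.5 and 11.7 ± 1.34 in mCherry dark and light, which did not pass. Wild-type monocultures also held less PCDHGA6 in the light, with 34.4, 27.4 and 18.6 in wt dark and 4.59, 7.61 and 11.2 in wt light. These wt groups did not overlap but did not pass, and the mean in GFP cells was not lower in the light. The light effects on PCDHGA6 did not differ between Cry2 and wt cells at the threshold, so its fall was not shown to be particular to engineered cells. PCDHGA11 went from 26.5, 27.9 and 43.5 in mCherry dark to 18.4, 19.4 and 15 in mCherry light (log2 -0.83 ± 0.30, limma adjusted p = 0.0315). The groups did not overlap, but the call was lost without mCherry dark c, mCherry light a or mCherry light c (limma adjusted p = 0.149, 0.0536 and 0.091). Other fits called further gamma genes lower. In Cry2 light PCDHGA9 passed by DESeq2 (adjusted p = 0.0454) and edgeR (0.0421). In mCherry light PCDHGA7 passed by DESeq2 (0.0297) and edgeR (0.0442), and PCDHGA5 by DESeq2 (0.0479).

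In the alpha cluster both C types were lower under light, the opposite direction to those of the gamma cluster. PCDHAC2 held 353, 270 and 360 normalised reads in Cry2 dark and 68.8, 41.3 and 39.9 in Cry2 light. In mCherry cells it held 317, 376 and 386 in the dark and 43.0, 51.8 and 67.7 in the light. The highest lit library was far below the lowest dark one in both cultures. The level was 6.55-fold lower in Cry2 light (log2 change -2.72 ± 0.26, limma adjusted p = 3.13e-07) and 6.64-fold lower in mCherry light (-2.73 ± 0.17, limma adjusted p = 3.26e-09). PCDHAC1 went from 197, 185 and 110 to 29, 27.6 and 18.6 in Cry2 cells and from 151, 147 and 176 to 37.7, 30.7 and 22.6 in mCherry cells. Its level was 6.55-fold and 5.21-fold lower (log2 -2.64 ± 0.27 and -2.37 ± 0.21, limma adjusted p = 5.44e-07 and 1.34e-07), again without overlap.

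Other alpha genes had smaller changes or did not pass. PCDHA12, the most abundant alpha gene per kilobase, went from 303, 295 and 375 to 122, 105 and 95.8 in Cry2 cells (3.02-fold lower, log2 -1.58 ± 0.24, limma adjusted p = 3.91e-05). In mCherry cells it went from 264 ± 33.1 to 102 ± 22.8 (2.58-fold lower, -1.37 ± 0.18, limma adjusted p = 1.24e-05). PCDHA4 was 1.41-fold lower in Cry2 light (120.6 to 85.9 in the mean, limma adjusted p = 0.0368) and 1.58-fold lower in mCherry light (limma adjusted p = 0.00438). The Cry2 call for PCDHA4 was lost without Cry2 dark replicate 1 or 3 or Cry2 light replicate 1 or 3 (limma adjusted p = 0.0586 to 0.136). PCDHA9, at 6.46 ± 3.63 in mCherry dark and 2.00 ± 2.22 in mCherry light, passed narrowly there (3.23-fold lower, and 7.99-fold without mCherry light a; log2 -1.47 ± 0.57, limma adjusted p = 0.0391) and not in Cry2 cells (-1.32 ± 0.55, limma adjusted p = 0.0518). Without mCherry dark a or b or mCherry light b or c it no longer passed (limma adjusted p = 0.0696 to 0.202). The mCherry call for PCDHA9 was also lost with DESeq2 (adjusted p = 0.0752), edgeR (0.0968) and limma without the filter (0.0625). PCDHA10, among the stronger alpha genes, stood at 153 ± 32.1 and 126 ± 18.5 in Cry2 dark and light, a difference within the spread of its libraries (limma adjusted p = 0.36, 95% interval of the log2 change -0.77 to 0.24).

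Of the 13 beta genes tested, limma called 2 lower in Cry2 cells and 3 in mCherry cells, and none higher. DESeq2 also called PCDHB16 lower in Cry2 light (log2 -0.62, adjusted p = 0.0408). PCDHB2, the most abundant beta gene, held 1052, 886 and 1103 in Cry2 dark and 1148, 1102 and 1068 in Cry2 light, with a 95% interval of the log2 change of -0.07 to 0.33. In mCherry cells it held 1016, 1098 and 1127 in the dark and 1075, 1195 and 1090 in the light (-0.13 to 0.24), and the groups overlapped in both cultures. PCDHB15 was 1.44-fold lower in Cry2 light (191, 221 and 256 against 141, 156 and 165; log2 -0.52 ± 0.18, limma adjusted p = 0.0208) and 1.35-fold lower in mCherry light (-0.43 ± 0.17, limma adjusted p = 0.0468). The lit libraries lay below the dark ones in both cultures. Both calls depended on single libraries: without Cry2 dark replicate 3 or Cry2 light replicate 1 the first was lost (limma adjusted p = 0.0922 and 0.06), and without mCherry dark a or c or mCherry light b or c the second (0.103 to 0.162). In wt cells PCDHB15 held 297 ± 9.61 in the dark and 207 ± 50.5 in the light, again without overlap, and did not pass. GFP cells held 251 ± 35.8 in the dark and 253 ± 43.0 in the light. Its difference of the light effects between engineered and wild-type cells did not pass in either culture. PCDHB4 passed in Cry2 cells only by a narrow margin (53.5, 39.6 and 25.3 against 18.1, 13.8 and 16.0; log2 -1.20 ± 0.47, limma adjusted p = 0.0405). Leaving out Cry2 dark replicate 1 or 2, or any of the 3 Cry2 light replicates, ended that call (limma adjusted p = 0.0563 to 0.145). In mCherry cells PCDHB5 went from 58.2, 60.5 and 96.5 to 34.2, 29.9 and 25.6, 2.40-fold lower and without overlap (log2 -1.21 ± 0.26, limma adjusted p = 0.000961). PCDHB3 went from 37.7, 29.8 and 32.4 to 16.7, 16.2 and 24.1 there (log2 -0.80 ± 0.32, limma adjusted p = 0.045), a call that was lost on leaving out mCherry dark a, b or c or mCherry light a or b (0.0629 to 0.124).

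The lit engineered cells differed from all other groups in more than these genes. The 7 primitive streak and mesoderm markers present, of 8 listed, summed to 98324.9 to 114737.5 in the lit engineered libraries and to 180.1 to 619.8 in all others, and the 8 pluripotency markers summed to 84282.6 to 103103.2 in the lit engineered libraries. The 12 neural markers summed to 362.1 to 493.5 in lit engineered cells and 718.8 to 1010.7 elsewhere, but the genes did not move together. In Cry2 cells the means of DCX were 453.07 in the dark and 54 in the light and those of MAP2 164.14 and 82.37, while STMN2 stood at 16.53 and 87.08 and MAPT at 94.15 and 158.06. PAX6 and NEUROG2 had no reads in either lit engineered group and means of at most 3.89 and 3.02 in any group. The 3 smooth muscle and fibroblast markers present, of 5, summed to 6186.1 to 9421.2 in lit engineered cells and 2430.1 to 4534.1 elsewhere. The 5 endothelial and blood markers summed to 3777.0 to 6440.3 over all libraries. Genes within these lists differed too. SALL4 was the only pluripotency marker with a higher mean in Cry2 light than dark (8563.34 to 13403.92), while SOX2 went from 9124.32 to 38.55. COL1A1 stood at 4300.8 and 4616.09 in Cry2 dark and light, and COL3A1 at 1.84 and 2187.34. KDR, at 5552.12 and 4848.91, made up most of the endothelial and blood sum, while RUNX1 stood at 26.1 and 63.07 and CDH5 at 22.42 and 2.05. The part of these markers in the protocadherin changes was not tested, and in bulk RNA fewer cells of a type and less RNA per cell cannot be told apart.

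Wild-type cells were examined under the same light to see what light alone, or lit engineered neighbours, would do. In wt monocultures limma called 0 of 41 tested members higher and 0 lower, against 0.0309% and 0.0411% of all genes. The edgeR and DESeq2 fits called 0 as well. By limma 6 members (1 alpha, 1 beta and 4 gamma genes) had an unadjusted p under 0.05 there. The share of all genes at that unadjusted cut was not determined in wt or GFP cells. In sorted GFP cells limma, edgeR and DESeq2 called 0 of 43 tested members in either direction, beside 2.39% of all genes higher and 2.21% lower, with 1 member (PCDHA6) at an unadjusted p under 0.05. Without GFP light c, limma called PCDHA6 lower there (adjusted p = 0.0469), at 2.65, 11.7 and 2.86 in GFP dark and 0, 0.942 and 2.69 in GFP light. PCDHB15 and PCDHGA6, called lower in Cry2 light, also had lower means in wt light, without overlap of light and dark libraries, but did not pass. The genes that changed most in engineered cells did not pass here either. PCDHGC4 stood at 99.0 ± 31.0 and 78.8 ± 2.46 in wt dark and light and at 84.5 ± 18.7 and 104 ± 5.58 in GFP dark and light. PCDHAC2 stood at 282 ± 60.4 and 231 ± 73.3 in wt cells and at 328 ± 36.1 and 413 ± 24 in GFP cells. The 95% interval of the log2 change under light was -0.96 to 0.42 in wt and -0.13 to 0.78 in GFP cells for PCDHGC4, and -0.34 to 0.25 and -0.30 to 0.21 for PCDHGC3.

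The difference between the light effects was tested directly as an interaction, with counts by limma. In monoculture 8 members responded more positively in Cry2 than in wt cells and 4 more negatively, beside 22.8% and 25.0% of all genes. In co-culture 6 responded more positively in mCherry than in GFP cells and 5 more negatively, beside 19.5% and 21.0% of all genes. All 6 of the latter higher members were among the 8 of the monoculture (PCDHGB6, PCDHGA10, PCDHGB7, PCDHGC3, PCDHGC4 and PCDHGC5), and the 4 lower members of the monoculture (PCDHA4, PCDHA12, PCDHAC1 and PCDHAC2) were among the 5 of the co-culture, with PCDHB5 as the fifth. Some of these calls rested on single libraries. In monoculture PCDHGA2 (adjusted p = 0.0495) was lost without any one of the 12 libraries other than wt dark replicate 3 (limma adjusted p = 0.0501 to 0.197), and PCDHGB4 was lost without Cry2 light replicate 1 (0.0677) or wt light replicate 2 (0.0625). DESeq2 and edgeR did not call PCDHGA2 there either (adjusted p = 0.125 and 0.0896). In co-culture PCDHA4 was lost without any one of GFP dark a, b or c, GFP light a or b, mCherry dark b or c, or mCherry light b (limma adjusted p = 0.0542 to 0.0948). Other fits added calls. In co-culture DESeq2 and edgeR called PCDHA6 (adjusted p = 0.0143 and 0.0315) and PCDHGB4 (0.0317 and 0.0471) more positive in mCherry than in GFP cells. In monoculture DESeq2 called PCDHB16 more negative in Cry2 than in wt cells (0.0471). For PCDHGC4 the difference was 4.53 ± 0.46 on the log2 scale in monoculture (limma adjusted p = 8.38e-07) and 4.20 ± 0.30 in co-culture (3.39e-08). For PCDHAC2 it was -2.40 ± 0.37 (limma adjusted p = 7.46e-05) and -3.06 ± 0.24 (1e-07).

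Some members differed between the lines before any light was given. Of 41 tested members, 1 was higher and 2 were lower in Cry2 than in wt dark monocultures, against 2.27% and 1.33% of all genes. In dark co-cultures 1 of 43 was higher and 3 were lower in mCherry than in GFP cells, against 0.453% and 0.345% of all genes. The higher member was PCDHA6 in both cultures, PCDHB16 and PCDHGA10 were lower in both, and PCDHB9 was lower in co-culture.

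PCDHA6 (ENSG00000081842, chr5:140827958-141012344), a variable isoform of the alpha cluster, was measured almost entirely in engineered cells. Cry2 dark libraries held 151, 130 and 107 normalised reads and wt dark libraries 0, 0 and 2.48, which are 280 and 2 reads before normalisation. The ratio was 152, with an exact 95% counting interval of 41.8 to 1260 that covers counting error only (log2 difference 6.41 ± 0.51, limma adjusted p = 3.37e-06). In dark co-cultures it stood at 142, 129 and 177 in mCherry cells and at 2.65, 11.7 and 2.86 in GFP cells, a 26.1-fold difference of the means (log2 4.73 ± 0.51, limma adjusted p = 0.000139). Without GFP dark b that fold was 54.2, and both reads of wt dark came from replicate 3. The highest dark wild-type library held 11.7 normalised reads and the lowest dark engineered one 107. GFP dark b was the highest wild-type library for PCDHA6. Its signal on the Cry2 fusion was 397.7, and the wild-type libraries ran from 218.9 to 426.5. The source of its PCDHA6 reads was not tested. In the light PCDHA6 stood at 173 ± 10.9 in Cry2 and 167 ± 12.2 in mCherry cells, where the C types PCDHAC1 and PCDHAC2 fell. Its share of the alpha reads was 10.02% ± 1.60 in Cry2 dark, 28.88% ± 3.85 in Cry2 light and at most 0.98% in any wild-type library. Its promoter up to the first annotated base (RefSeq, GRCh38.p14, chr5:140827710-140827957, plus strand, 5′ to 3′, CGCTGT in capitals) is given as the start region of the member with the largest difference between the lines.
PCDHA6 promoter: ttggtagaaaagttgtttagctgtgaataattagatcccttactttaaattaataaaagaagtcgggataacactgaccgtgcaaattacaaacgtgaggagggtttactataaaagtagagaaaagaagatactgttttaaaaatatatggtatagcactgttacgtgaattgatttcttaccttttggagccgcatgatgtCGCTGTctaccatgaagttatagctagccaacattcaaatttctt
The region had a GC content of 35.7% over the 300-base RefSeq window, within the 33.7% to 40.3% of the variable alpha genes and below the 63.0% of PCDHAC2.

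**Figure D5:**
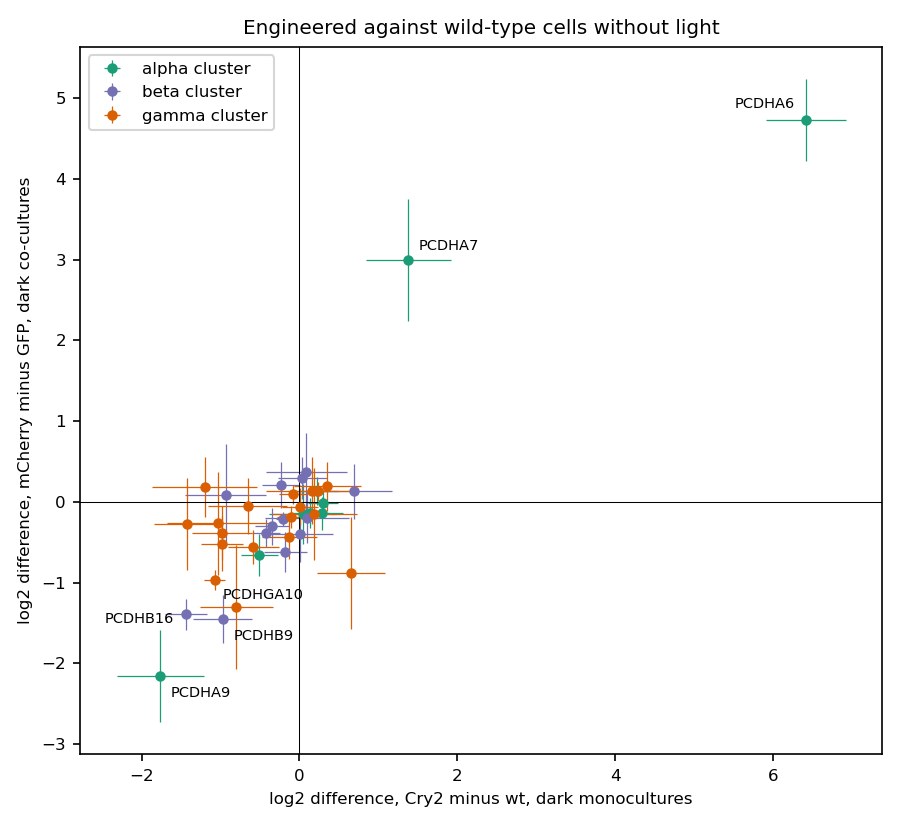
Log2 difference between engineered and wild-type cells in the dark for the 40 members tested in both cultures, in monoculture (horizontal axis) and in co-culture (vertical axis); bars are standard errors and colours are clusters. PCDHA6 lies apart at 6.41 and 4.73, and PCDHB16 and PCDHGA10 lie below 0 on both axes.

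PCDHB16, a beta isoform, was lower in engineered cells, with 102, 58.0 and 49.1 in Cry2 dark against 201, 156 and 190 in wt dark. In co-culture the mCherry dark libraries held 75.3, 88.4 and 60.1 and the GFP dark libraries 212, 191 and 184. The groups did not overlap, and the difference was 2.62-fold in each culture (log2 -1.44 ± 0.27 and -1.39 ± 0.19, limma adjusted p = 0.00688 and 0.00142). It was lost in monoculture when the low-GC and the low-integrity library were both left out (log2 -1.15, limma adjusted p = 0.125), an alternative chosen after seeing the data. Under that alternative PCDHGC4 passed as lower in Cry2 dark (log2 -1.33, limma adjusted p = 0.00513). The omitted Cry2 dark replicate 3 held 119 normalised reads of PCDHGC4 against 39.2 and 53.7 in the other Cry2 dark libraries. PCDHGA10, the gamma gene described above for its rise under light, was lower in dark engineered cells. It held 300, 247 and 257 in Cry2 dark against 588, 576 and 533 in wt dark, and 309, 284 and 234 in mCherry dark against 575, 528 and 509 in GFP dark, without overlap. These differences were 2.11-fold and 1.95-fold (log2 -1.08 ± 0.13 and -0.97 ± 0.12, limma adjusted p = 0.000185 and 0.000743). In the light the order of the means was the reverse, with 1089 ± 93.8 in Cry2 and 491 ± 84.8 in wt cells. PCDHB9 held 22.3, 23.3 and 15 in mCherry dark and 50.4, 66.4 and 52.2 in GFP dark (2.79-fold lower, log2 -1.45 ± 0.29, limma adjusted p = 0.0299), and that call was lost without any one of the 6 libraries (0.0703 to 0.193).

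For PCDHA9 and PCDHA7 the means of the lines lay apart, but the difference did not pass by limma. PCDHA9 stood at 7.91 ± 4.30 in Cry2 dark and 28.7 ± 12 in wt dark, and at 6.46 ± 3.63 and 29 ± 2.62 in co-culture (limma adjusted p = 0.0991 and 0.166). PCDHA7, the neighbour downstream of PCDHA6, had means of 17.3 and 6.35 in Cry2 and wt dark and 15.1 and 1.14 in mCherry and GFP dark (limma adjusted p = 0.192 and 0.128). With DESeq2 on the recovered reads both passed in co-culture (adjusted p = 0.00269 for PCDHA9 and 0.0336 for PCDHA7). In monoculture PCDHGB5, at 46.1 ± 1.96 in Cry2 dark and 93.8 ± 24.4 in wt dark, missed the threshold by limma (adjusted p = 0.0575) and passed as lower by DESeq2 (0.0145) and edgeR (0.047).

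The non-clustered protocadherins, single genes outside the 3 clusters, responded to light in both directions. Of 12 listed, 11 were in the table and 11 tested in monoculture: 6 were higher and 4 lower in Cry2 light (28.1% and 30.4% of all genes), and 6 and 4 of 10 tested in mCherry light (27.2% and 28.7% of all genes). PCDH19, an adhesion gene linked to epilepsy, went from 125 ± 8.72 to 4808 ± 373 in Cry2 cells (log2 5.26 ± 0.16, limma adjusted p = 2.76e-13), and PCDH10 from 379 ± 80.4 to 3266 ± 181 (3.12 ± 0.15, 6.42e-11). PCDH1, an epithelial protocadherin, went from 7269 ± 373 to 254.5 ± 30.1 (-4.84 ± 0.08, limma adjusted p = 1.85e-15). In GFP light 2 of 10 tested were higher and 1 lower (2.39% and 2.21% of all genes), while no clustered member rose there by limma. PCDH10 went from 338.5 ± 26.0 to 1172 ± 67.6 in GFP cells (1.79 ± 0.11, limma adjusted p = 2.73e-07). PCDH19 went from 114.3 ± 13.3 to 182.2 ± 16.4 (0.67 ± 0.13, limma adjusted p = 0.00588). PCDH18 was lower (-0.81 ± 0.15, limma adjusted p = 0.00575).

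For genes known to act on the clusters or downstream of the proteins, the counts below stand beside the same shares of all genes, 28.1% higher and 30.4% lower in Cry2 light and 27.2% and 28.7% in mCherry light. Of 12 CTCF and cohesin genes 6 were higher and 1 lower in Cry2 light, and 4 and 2 in mCherry light. STAG1, a cohesin subunit, rose from 865 ± 15.8 to 1752 ± 208 in Cry2 cells (log2 1.01 ± 0.09, limma adjusted p = 1.8e-07), and CTCFL, the germline relative of CTCF, fell from 246 ± 23.5 to 38.3 ± 5.26 (-2.66 ± 0.19, limma adjusted p = 1.06e-08). Of 12 genes of DNA methylation and repression 4 were higher and 2 lower in each engineered culture. DNMT3B, a de novo DNA methyltransferase, went from 54080 ± 581 to 11170 ± 617 in Cry2 cells (log2 -2.28 ± 0.07, limma adjusted p = 5.15e-13), UHRF1, which recruits the maintenance enzyme, from 1445 ± 67.7 to 4116 ± 252 (1.51 ± 0.08, 1.19e-10) and TET2, a methylcytosine oxidase, from 154 ± 21.9 to 422.5 ± 35.5 (1.46 ± 0.22, 3.49e-05). In the dark, DNMT3A and UHRF1 were lower in Cry2 than in wt cells (log2 -0.32 ± 0.05 and -0.47 ± 0.08, limma adjusted p = 0.00184 and 0.00245), while in dark co-cultures neither passed (-0.21 ± 0.07 and -0.11 ± 0.07 for mCherry against GFP, limma adjusted p = 0.38 and 1). Of 14 genes listed as intracellular partners or effectors (kinases, the WAVE actin complex, AXIN1 and MARCKS), 5 were higher and 2 lower in Cry2 light and 6 and 1 in mCherry light. CYFIP2, a subunit of the WAVE actin complex, fell from 5135 ± 141 to 707 ± 70.9 (log2 -2.86 ± 0.09, limma adjusted p = 4.33e-13), while MARCKS, a membrane-bound actin regulator, rose from 5147 ± 97.9 to 9778 ± 717 (0.92 ± 0.10, limma adjusted p = 1.1e-06). The relation of these genes to the protocadherin values was not tested.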

How the data were processed

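Messenger RNA was sequenced from 24 libraries (3 in each of 8 groups) with a stranded kit, per the labels' protocols. Per the submitters' processing notes, FastQC, cutadapt, Bowtie2, STAR, HTSeq, DESeq and GRCh38 were used; versions, the counting mode and the handling of shared exons are not given in the sources used here, and the header of the deposited sample table names hg19. The deposited signal is read counts divided by 1 factor per library, and 100.0% of the values came out as whole reads within 0.01, so reads were recovered. The authors' sample table also gave GC content in percent, the RNA integrity score and mean read length, an other quantity that was not used.

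Groups came from the sample titles. The genotype tags of the monoculture samples say the opposite of their titles, and the signal of the Cry2 fusion, 34166.5 to 61394.2 in engineered and 218.9 to 426.5 in wild-type libraries, follows the titles. Co-culture columns carry a group only, so a, b and c only number their columns, and their rows of the sample table were not used. Monoculture and co-culture (12 libraries each) were fitted separately with limma 3.58.1 (R 4.3.3) on log2(value + 1), keeping genes that reached 10 in 3 or more libraries. P-values were adjusted by Benjamini-Hochberg over all genes tested, two-sided, with a threshold of 0.05. Fold is the ratio of group means. Alternatives were a pseudocount of 0.5, no filter, TMM scaling, edgeR 4.0.16 and DESeq2 1.42.0 on recovered reads, a replicate block, leaving out each library and, added after seeing the data, leaving out the low-GC and the low-integrity library of the monocultures. The fits were tested on simulated data. Members, lists and the rule for named genes were chosen with earlier results of these data known. The rule gave in full the 2 members of each cluster with the largest rise and fall in each two-group comparison, the most abundant member and the C types, and up to 4 genes a direction of each related list.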

Additional observations from a re-analysis of the deposited data

Results flagged for a closer look

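The light effect differed between engineered and wild-type cells for 12 clustered protocadherins in monoculture and 11 in co-culture, each by limma's test of the difference itself (adjusted p under 0.05; values are log2 differences of the light effects). In monoculture the light effect in Cry2 cells exceeded that in wt cells by 4.53 for PCDHGC4, 4.29 for PCDHGC5, 2.77 for PCDHGC3, 2.49 for PCDHGB7, 2.24 for PCDHGA10, 1.73 for PCDHGB6, 1.48 for PCDHGA2 and 0.95 for PCDHGB4. The difference was -2.40 for PCDHAC2, -2.37 for PCDHAC1, -1.26 for PCDHA12 and -0.84 for PCDHA4. In co-culture the light effect in mCherry cells exceeded that in GFP cells by 4.20 for PCDHGC4, 2.99 for PCDHGC3, 2.82 for PCDHGC5, 2.33 for PCDHGB7, 2.03 for PCDHGA10 and 1.68 for PCDHGB6. There the difference was -3.06 for PCDHAC2, -2.32 for PCDHAC1, -1.48 for PCDHA12, -1.30 for PCDHB5 and -0.68 for PCDHA4.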

How the results depend on the processing

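Of 61 calls of single members, 45 held under every alternative run, 16 were lost under at least 1, and 0 changed direction. Leaving out 1 library at a time, the members called lower in Cry2 light numbered 4 to 9 (4 without Cry2 light replicate 3, against 7), those called lower in GFP light 0 to 1 (1 without GFP light replicate c), and those called higher in Cry2 light 7 to 9. In mCherry light 6 to 7 were higher and 6 to 9 lower. DESeq2 called 2 members higher in dark mCherry than GFP cells, adding PCDHA7 (adjusted p = 0.0336). With the replicate block in monoculture, 8 members were higher and 5 lower in Cry2 light, and 7 and 4 in the difference of the light effects. The calls lost under the block were PCDHA4 (limma adjusted p = 0.0537) and PCDHB4 (0.0558) in Cry2 light and PCDHGA2 (0.0638) in the difference. Same-numbered libraries did not deviate together (r from -0.061 to 0.058 over 18 pairs, against -0.057 to 0.08 over 36 others), so the numbers were not taken as pairs. Members with few reads were those most often lost or not tested, and reads in the shared alpha and gamma exons limit how far a value belongs to 1 gene.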
